A study of Mus musculus with 10 samples.

Results

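The genes described here are 50 mouse genes of redox defence. They comprise the transcription factor NRF2 with its partners and repressors, and the enzymes that make, recycle, use and break down glutathione. They also comprise the thioredoxin and peroxiredoxin system, catalase, superoxide dismutases, the quinone reductase Nqo1 and enzymes of the pentose phosphate pathway, which supplies NADPH. They were taken by name from the 51670 gene models of the deposited table, and all 50 were found there. RNA had been sequenced from hematopoietic stem cells of mouse bone marrow, sorted by surface markers as CD48-CD150+LSK. The donors were wild-type C57BL/6J mice that had received tunicamycin at 2 mg/kg (5 libraries) or DMSO, the vehicle (5 libraries), into the peritoneum. Tunicamycin inhibits the first enzyme of N-linked glycan synthesis, so that unfolded glycoproteins collect in the endoplasmic reticulum (ER). The labels do not state age, cell number, the interval from injection to sorting or whether every library came from its own animal, so p-values measure the spread between these libraries, which may be technical.

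In resting cells the adaptor KEAP1 holds NRF2 (encoded by Nfe2l2) for ubiquitination and destruction. Oxidants and electrophiles modify KEAP1, NRF2 then escapes, pairs with a small MAF protein (Maff, Mafg or Mafk) and activates genes through antioxidant response elements (AREs), while BACH1 occupies the same elements as a repressor. Much of this control acts on the protein and is not read by mRNA. Glutathione and thioredoxin are the main thiol reductants of the cell and draw their electrons from NADPH. In mouse hematopoietic stem cells, low levels of reactive oxygen species are known to go with quiescence.

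Of the 50 genes, 48 passed the filter on low values (at least 1 FPKM, fragments per length of gene model and depth of library, in at least 5 of the 10 libraries) and were tested. At an adjusted p under 0.05 in limma, 15 were higher after tunicamycin, 18 were lower and 15 did not pass. Over all 14727 genes tested, 29.9% were higher and 15.4% lower, against 31.2% and 37.5% of the tested redox genes. Their median log2 change was -0.05, against 0.18 for all genes. No library of one group overlapped the other group for 11 redox genes that were higher and 17 that were lower, and the corresponding shares of all genes tested were 19.2% and 11%. The regulators that passed all rose, the peroxiredoxins and superoxide dismutases that passed all fell, and the glutathione enzymes went both ways.

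**Figure D1:**
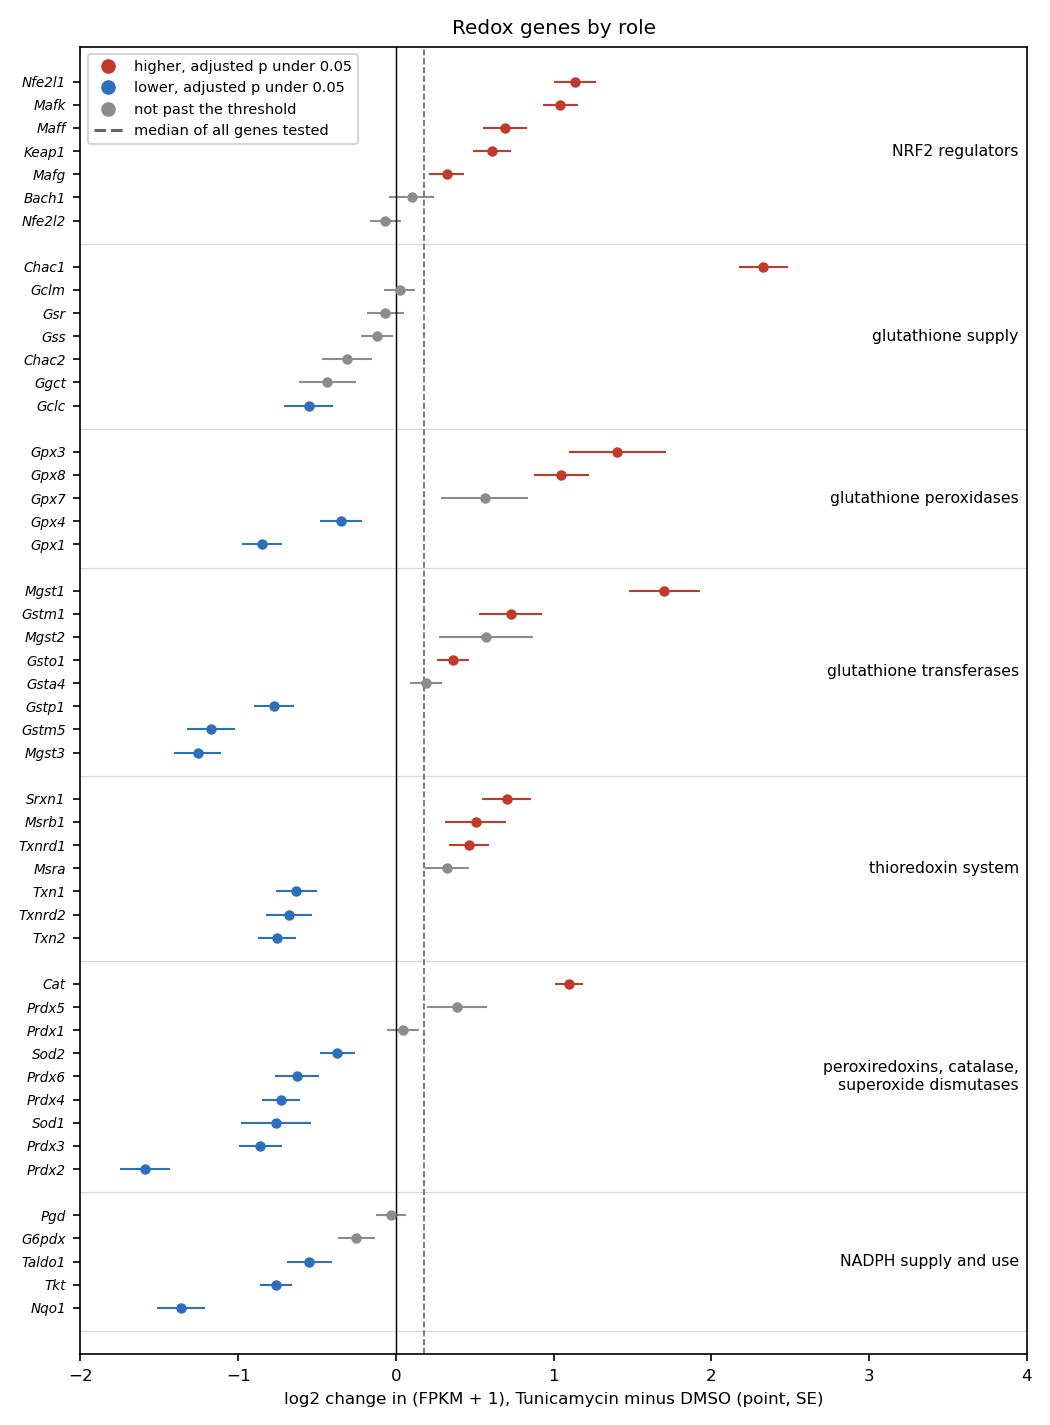
Log2 change in FPKM + 1 (tunicamycin minus DMSO; point and SE; 5 libraries per group) of the 48 tested redox genes, grouped by role. Red points are higher and blue points lower at an adjusted p under 0.05, gray points did not pass, and the dashed line is the median of all genes tested, 0.18. Chac1 lies farthest to the right at 2.33 and Prdx2 farthest to the left at -1.59.

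Promoter windows are shown for 6 members, because the members with ARE letters near their start did not move together. The windows are from RefSeq (GRCm38.p6, the build also named mm10), run 5′ to 3′ on the gene's strand, and cover 250 bases before to 50 bases after a start. Of the 50 members 44 matched this table, with 58 windows. Searched on both strands were the ARE cores TGACNNNGC and TGAGNNNGC, the core TGATGNAA of the composite site that ATF4 and C/EBP factors bind, the unfolded protein response core TGACGTGG, and the ER stress element, which is CCAAT and CCACG with 9 bases between them. Capitals mark every match.
Chac1, chr2:119350992-119351291, plus strand: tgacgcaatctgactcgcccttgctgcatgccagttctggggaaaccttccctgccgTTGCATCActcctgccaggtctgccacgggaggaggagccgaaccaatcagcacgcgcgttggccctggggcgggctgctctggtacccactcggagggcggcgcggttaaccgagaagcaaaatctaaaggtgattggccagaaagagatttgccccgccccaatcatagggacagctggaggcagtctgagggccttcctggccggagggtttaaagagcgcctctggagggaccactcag
Srxn1, chr2:152105274-152105573, plus strand: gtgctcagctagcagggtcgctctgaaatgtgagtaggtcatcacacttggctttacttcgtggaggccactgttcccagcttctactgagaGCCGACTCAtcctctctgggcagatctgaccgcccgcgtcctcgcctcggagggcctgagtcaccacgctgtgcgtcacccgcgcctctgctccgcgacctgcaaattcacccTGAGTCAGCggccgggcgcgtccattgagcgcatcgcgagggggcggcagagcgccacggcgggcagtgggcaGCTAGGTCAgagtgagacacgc
Txnrd1, chr10:82858956-82859255, plus strand: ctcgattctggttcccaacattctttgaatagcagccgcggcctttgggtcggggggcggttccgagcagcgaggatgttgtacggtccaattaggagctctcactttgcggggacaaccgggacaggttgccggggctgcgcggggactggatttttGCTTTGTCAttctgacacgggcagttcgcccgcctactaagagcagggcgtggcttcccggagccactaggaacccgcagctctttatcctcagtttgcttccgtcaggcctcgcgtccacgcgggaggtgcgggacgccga
Gstp1, chr19:4037863-4038162, minus strand: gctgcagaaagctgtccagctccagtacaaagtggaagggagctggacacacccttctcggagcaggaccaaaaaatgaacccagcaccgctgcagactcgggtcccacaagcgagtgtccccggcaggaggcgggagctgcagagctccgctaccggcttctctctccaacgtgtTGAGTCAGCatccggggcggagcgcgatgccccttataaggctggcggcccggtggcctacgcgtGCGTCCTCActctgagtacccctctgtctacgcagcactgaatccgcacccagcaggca
Prdx1, chr4:116685349-116685648, plus strand: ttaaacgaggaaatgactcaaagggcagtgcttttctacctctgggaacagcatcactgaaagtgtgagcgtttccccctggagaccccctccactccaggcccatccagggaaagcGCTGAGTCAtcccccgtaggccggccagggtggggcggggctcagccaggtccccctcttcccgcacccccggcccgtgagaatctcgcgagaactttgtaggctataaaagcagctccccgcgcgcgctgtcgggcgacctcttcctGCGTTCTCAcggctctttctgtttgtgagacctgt
Nqo1, chr8:107403156-107403455, minus strand: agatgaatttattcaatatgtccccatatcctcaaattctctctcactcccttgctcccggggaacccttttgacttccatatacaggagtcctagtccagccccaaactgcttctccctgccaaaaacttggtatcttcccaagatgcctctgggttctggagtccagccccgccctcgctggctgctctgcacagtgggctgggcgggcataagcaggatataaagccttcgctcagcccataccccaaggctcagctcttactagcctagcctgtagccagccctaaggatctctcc
Chac1 is shown because it was the member with the largest rise and held the single match to the ATF4 and C/EBP core in the 58 windows. That match lies on the minus strand and begins at -193, counted from the start. Across all 32851 windows 3.97% held this core. Srxn1 and Gstp1 hold the same 9 letters, TGAGTCAGC, beginning at -45 and -74, and Prdx1 holds GCTGAGTCA, beginning at -133, which is a match on the minus strand. All 3 fit TGANTCAGC, an ARE core that also holds the AP-1 core, and 1.19% of all windows held such a match. Srxn1 rose, Gstp1 fell and Prdx1 did not pass the test. Txnrd1, which rose, has 3 windows, and the printed one holds a match to TGACNNNGC on the minus strand at -92. Nqo1, which fell, has none of these letters in its window, but sequence more than 250 bases before the start was not searched. The first ARE core was in 14 member windows of 14 members (24.1% of member windows, against 12.4% of all windows). The second was in 11 windows of 8 members (19.0%, against 17.6%). Windows of the same gene can overlap, and those of Nfe2l1 with GCAGCCTCA at -207, -125 and -11 hold the same site. The unfolded protein response core was in 1 window, of Nfe2l1 (1.72%, against 0.676%), and the ER stress element in 0, against 0.119% of all windows. A match describes letters and is no evidence of binding.

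The redox genes were read in libraries whose other markers also differed. All 14 stem cell markers, such as Kit, Mecom and Procr, were detected in both groups. Of the 14, 8 were higher, Mecom among them, and 0 lower, while Kit and Procr did not pass. The summed level of the 14 was 647 to 911 FPKM after tunicamycin and 461 to 638 FPKM after DMSO. Cd48 transcripts, whose protein the sort had selected against, were at 53.1 to 75.6 FPKM after tunicamycin and 17.0 to 38.1 FPKM after DMSO. Cd4, the other tested gene of 7 that mark cells outside the gate, averaged 17.9 FPKM after tunicamycin and 3.83 FPKM after DMSO. All 18 macrophage markers were higher (sums of 2645 to 6461 FPKM after tunicamycin and 862 to 1568 FPKM after DMSO), as were 13 of 14 endothelial, 7 of 10 tested stromal and 5 of 7 tested megakaryocyte markers (megakaryocyte sums of 894 to 1428 FPKM after tunicamycin and 219.9 to 709.8 FPKM after DMSO). Of 12 neutrophil and mast cell markers 1 rose. Among 17 erythroid markers 12 fell and 5 rose, and those that rose were the 3 globin genes, Alas2 and Slc4a1. The sum of all 17 was 5307 to 10400 FPKM after tunicamycin and 4470 to 8318 FPKM after DMSO, with overlap. Without the globins it was 1166 to 2146 FPKM after tunicamycin and 4236 to 8140 FPKM after DMSO, of which Car1 and Car2 together averaged 1147 FPKM after tunicamycin and 5315 FPKM after DMSO. No marker of these lists was at 0 in every library. Bulk RNA cannot tell fewer cells of a type from less RNA per cell. In Tunicamycin replicate 1 all deposited values are whole numbers, so low levels are coarse there. Whether they were rounded or cut off is not known, and for Gclc and Srxn1 the missing decimals could decide whether the groups overlap. DMSO replicates 3 and 5 held Y-linked transcripts and almost no Xist (0.149 and 0.0654 FPKM), unlike the other 8 libraries (28.2 to 35.6 FPKM).

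Among the 7 regulators 5 rose and 0 fell, where 29.9% and 15.4% of all genes tested did. Nfe2l2, the NRF2 gene (chr2:75675513-75704641, minus strand, mm10), was at 55, 67.0, 56.0, 57.1 and 55.2 FPKM in the 5 tunicamycin libraries and at 68.4, 58.4, 60.0, 54.4 and 63.2 FPKM in the 5 DMSO libraries. The groups overlapped almost fully, for a log2 change of -0.07 ± 0.10 (SE; adjusted p 0.615 in limma). With every library set to the same median, Nfe2l2 passed as lower (-0.29, adjusted p 0.0346). Keap1, its repressor, was at 20, 21.5, 17.3, 17.8 and 26.0 FPKM after tunicamycin and at 12.3, 14.7, 12.7, 11.9 and 13.5 FPKM after DMSO. Every treated library lay above every DMSO library (log2 change 0.61 ± 0.12, adjusted p 0.00143), and with equal medians the change was 0.38. Within a library the ratio of Keap1 to Nfe2l2 was 0.309 to 0.471 after tunicamycin and 0.179 to 0.252 after DMSO, again without overlap.

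Nfe2l1 encodes NRF1, a relative of NRF2 that is anchored in the ER membrane and is known to activate proteasome genes. It rose most among the regulators. Its levels were 22, 26.0, 23.8, 19.3 and 18.02 FPKM after tunicamycin and 7.49, 11.4, 9.76, 10.2 and 8.15 FPKM after DMSO. The means differed 2.32-fold with no overlap (log2 change 1.14 ± 0.13, adjusted p 4.27e-05). Among the small MAF partners, which bind DNA in pairs with NRF1, NRF2 or BACH1, Mafk had 33, 38.8, 35.5, 29.5 and 32.3 FPKM in tunicamycin libraries, against 15.4, 19.3, 15.1, 13.5 and 16.3 FPKM in DMSO libraries. That is a log2 change of 1.04 ± 0.11 (adjusted p 2.58e-05) with no overlap. Maff averaged 2.70 ± 0.288 FPKM after tunicamycin and 1.30 ± 0.348 FPKM after DMSO (SD, n = 5 each; adjusted p 0.00171 in limma; log2 change 0.69, or 0.43 with quantile normalization). Mafg moved least, at 21.9 ± 2.35 and 17.4 ± 2.11 FPKM, and its call (adjusted p 0.0324) was lost without any of 5 single libraries, without DMSO replicates 3 and 5, with equal medians (log2 change 0.09, adjusted p 0.508), with quantile normalization and with no filter. Bach1, the repressor at AREs, was low in both groups, at 2, 2.76, 2.66, 2.46 and 1.57 FPKM after tunicamycin and 2.42, 2.16, 2.14, 1.89 and 1.65 FPKM after DMSO. Its groups overlapped (adjusted p 0.601).

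Nqo1 (chr8:107388225-107403206, minus strand, mm10), the quinone reductase that is commonly used as a readout of NRF2 activity, fell. It was at 6, 4.78, 5.93, 4.61 and 4.70 FPKM after tunicamycin and at 17.5, 11.6, 13.96, 12.4 and 20.5 FPKM after DMSO. The treated mean of 5.20 FPKM was 0.342 of the DMSO mean of 15.2 FPKM, the groups were far apart, and the log2 change was -1.36 ± 0.15 (adjusted p 3e-05). DMSO replicates 1 and 5 were highest, and without both the change was -1.14. The other enzymes grouped with it belong to the pentose phosphate pathway, which supplies NADPH. G6pdx, which catalyzes the first and limiting step, averaged 40.0 ± 3.38 FPKM after tunicamycin and 48.1 ± 6.96 FPKM after DMSO and did not pass (adjusted p 0.0975 in limma), although it passed as lower with equal medians (-0.48) and with quantile normalization (-0.29). Pgd, the next NADPH-producing enzyme, differed by less than the spread between libraries, at 43.7 ± 3.19 and 44.7 ± 3.66 FPKM. The enzymes of the non-oxidative branch fell. Tkt, transketolase, was at 124.5 ± 11.0 FPKM after tunicamycin and 211 ± 13.0 FPKM after DMSO (adjusted p 9.65e-05), and Taldo1, transaldolase, at 169 ± 28.8 and 247 ± 36.1 FPKM (adjusted p 0.00747). Taldo1 lost its call without DMSO replicates 1 and 5 (adjusted p 0.0699).

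**Figure D2:**
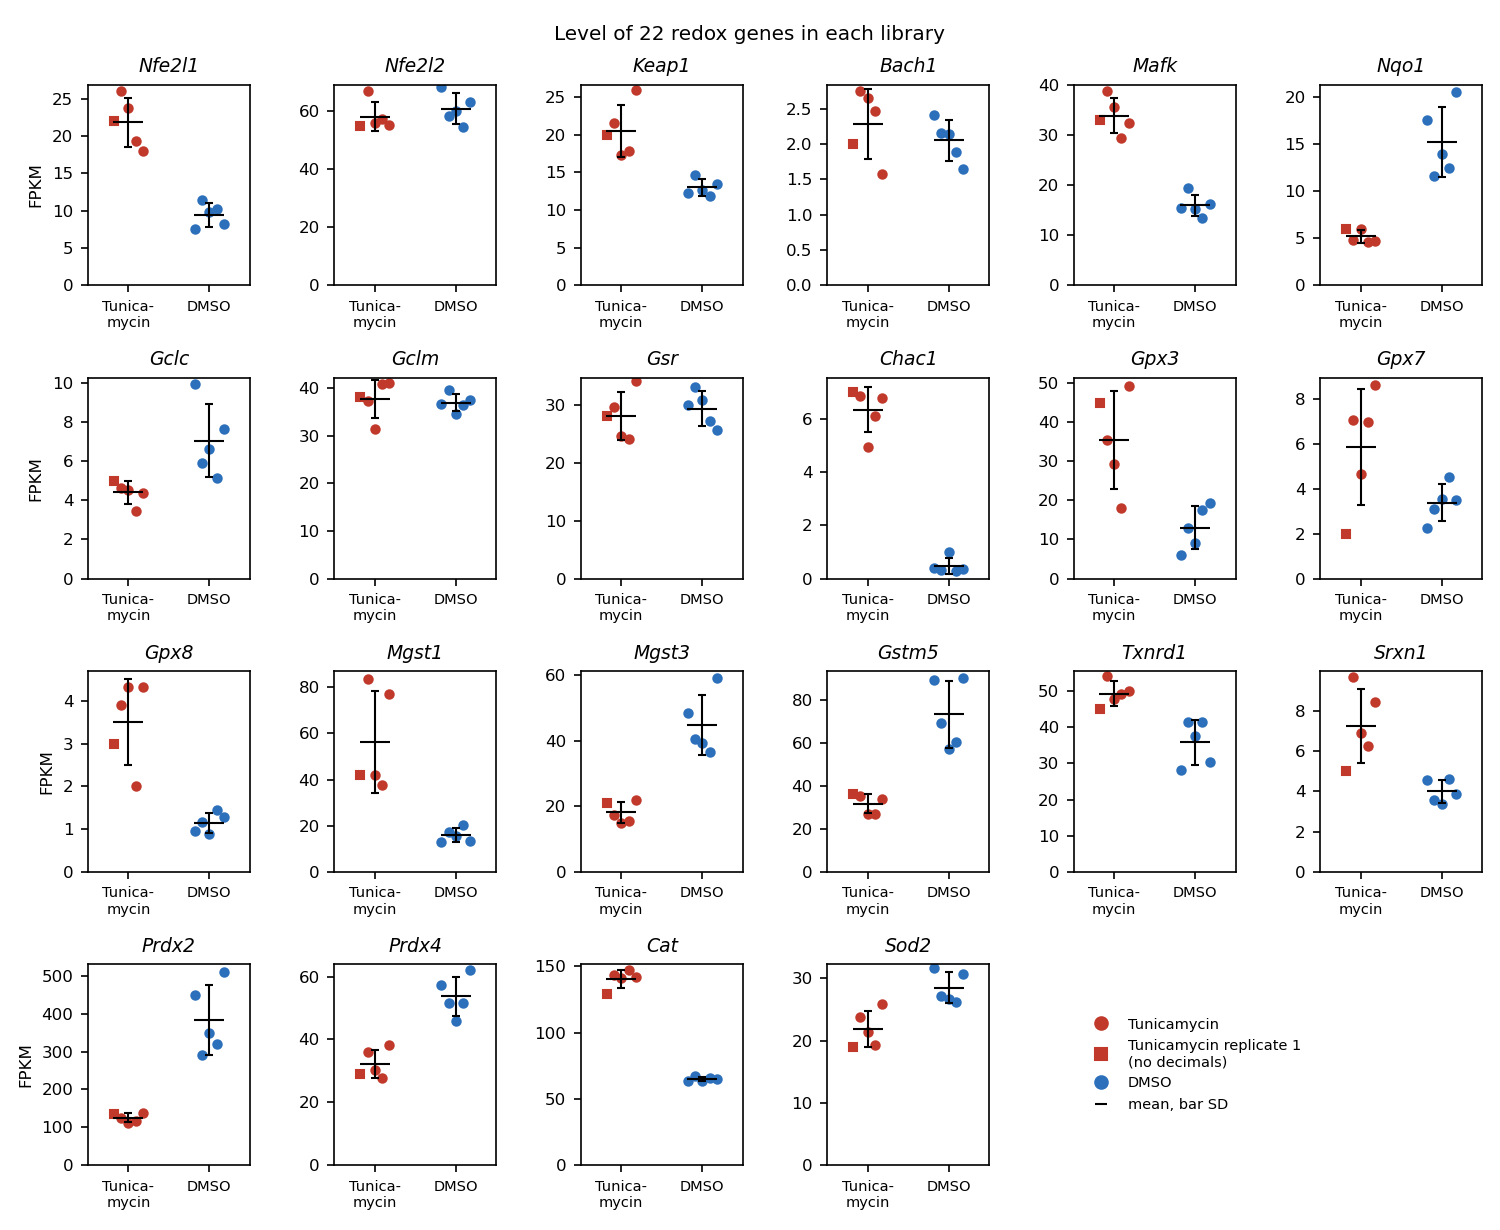
FPKM of 22 redox genes in each of the 10 libraries, with tunicamycin in red at the left and DMSO in blue at the right of each panel. Black marks are means with SD over 5 libraries, squares are Tunicamycin replicate 1, whose values hold no decimals, and every axis starts at 0. Cat, Chac1, Nfe2l1, Mafk and Mgst1 lie wholly above DMSO, while Nqo1, Prdx2, Prdx4, Mgst3 and Gstm5 lie wholly below it.

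Of the 9 genes of glutathione supply 7 were tested, of which 1 rose, 1 fell and 5 did not pass. Over all genes tested 29.9% rose and 15.4% fell. Gclc, the catalytic subunit of glutamate-cysteine ligase, was at 5, 4.65, 4.54, 3.46 and 4.37 FPKM after tunicamycin and at 9.945, 5.89, 6.61, 5.165 and 7.64 FPKM after DMSO. As listed, the lowest DMSO library was just above the highest treated one, Tunicamycin replicate 1, whose missing decimals could close that gap. The log2 change was -0.55 ± 0.15 (adjusted p 0.0112), and the call was lost without DMSO replicates 3 and 5 (adjusted p 0.0601) and without DMSO replicates 1 and 5 (0.0917). Gclm, the modifier subunit of the same ligase and also a known NRF2 target, was at 38, 37.2, 31.3, 40.8 and 41.1 FPKM after tunicamycin and 36.6, 39.7, 34.6, 36.3 and 37.4 FPKM after DMSO, with full overlap (adjusted p 0.866). The ratio of Gclc to Gclm was 0.0848 to 0.145 in treated libraries and 0.142 to 0.271 in DMSO libraries, which overlapped slightly. Gss, glutathione synthetase, did not pass (log2 change -0.12), nor did Gsr, which reduces oxidized glutathione, at 28, 29.6, 24.6, 24.0 and 34.1 FPKM after tunicamycin and 29.9, 33.0, 30.9, 27.2 and 25.6 FPKM after DMSO. With equal medians both passed as lower (-0.34 and -0.29), Gss also with quantile normalization (-0.32).

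Chac1 (chr2:119351229-119354381, plus strand, mm10) encodes a gamma-glutamylcyclotransferase that cleaves glutathione and is a known target of ATF4 and CHOP. It stood at 7, 6.87, 4.95, 6.11 and 6.77 FPKM in tunicamycin libraries, against 0.401, 0.332, 0.983, 0.283 and 0.358 FPKM in DMSO libraries. No DMSO library reached 1 FPKM, so Chac1 entered the test through its treated libraries alone, and with any 1 of them left out it was not tested. The means differed 13.4-fold, and the log2 change was 2.33 ± 0.15 (adjusted p 7.98e-07) with a pseudocount of 1 and 3.60 with a pseudocount of 0.1. Chac2, its paralog with a lower turnover of glutathione, did not pass, at 4.93 ± 0.593 FPKM after tunicamycin and 6.48 ± 1.80 FPKM after DMSO (SD, n = 5 each; adjusted p 0.128 in limma). The ratio of Chac1 to Chac2 was 1.03 to 1.75 in treated libraries and 0.0447 to 0.19 in DMSO libraries. Ggct was at 2.25 ± 0.718 FPKM after tunicamycin and 3.32 ± 0.551 FPKM after DMSO (adjusted p 0.0665). Chac2 and Ggct passed as lower with equal medians (-0.54 and -0.66) and with quantile normalization (-0.53 and -0.69), and Ggct also without Tunicamycin replicate 5. Cbs and Cth, which make cysteine from homocysteine, were not tested, with means of 0.506 and 0.590 FPKM after tunicamycin and 0.413 and 0.575 FPKM after DMSO.

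The glutathione peroxidases, which reduce peroxides at the cost of glutathione, split by gene, with 2 higher, 2 lower and 1 that did not pass. Shares of all genes tested were 29.9% higher and 15.4% lower. Gpx1, the main cytosolic form, was the most abundant of all 50 genes in both groups and fell to 809 ± 85.7 FPKM after tunicamycin, against 1453 ± 98.8 FPKM after DMSO (SD, n = 5 each; log2 change -0.85, adjusted p 0.000215 in limma). With quantile normalization its change was -0.44. Gpx4, which protects membrane lipids from peroxidation, was at 239 ± 35.8 and 304 ± 37.5 FPKM. Its call as lower was marginal (adjusted p 0.0483) and was lost without any of 6 single libraries, without DMSO replicates 3 and 5 or 1 and 5, with TPM scaling (-0.22, adjusted p 0.275), with no filter and without a mean-variance trend.

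The secreted form rose. Gpx3, the plasma glutathione peroxidase, was at 45, 35.5, 29.2, 18.2 and 49.2 FPKM after tunicamycin and 6.05, 13.0, 9.19, 17.4 and 19.3 FPKM after DMSO. The groups met at one point, since Tunicamycin replicate 4 lay below DMSO replicate 5, and the log2 change was 1.40 ± 0.31 (adjusted p 0.00275). Summed macrophage markers were at 6461, 4288, 3381, 2645 and 4259 FPKM after tunicamycin and 1174, 1568, 1052, 1255 and 862 FPKM after DMSO. Gpx3 was highest in replicate 5 of each group, and DMSO replicate 5 had the lowest macrophage sum of all libraries. The part of macrophages in the rise of Gpx3 was not tested. Gpx7 and Gpx8 encode peroxidases of the ER that pass oxidizing equivalents to protein disulfide isomerases. Gpx8 stood at 3, 3.91, 4.33, 2.00 and 4.33 FPKM after tunicamycin and 0.944, 1.17, 0.875, 1.44 and 1.28 FPKM after DMSO, a 3.08-fold difference of the means with no overlap (log2 change 1.05 ± 0.18, adjusted p 0.000466). Gpx7 had 2, 7.10, 4.66, 6.998 and 8.63 FPKM in treated libraries and 2.24, 3.11, 3.54, 4.56 and 3.49 FPKM in DMSO libraries. All treated libraries but replicate 1 lay above DMSO. The adjusted p was 0.111 with all libraries and 0.00277 without Tunicamycin replicate 1 (log2 change 0.84), the library without decimals. With the replicate number as a block it was 0.0318.

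Glutathione transferases, which attach glutathione to electrophiles, also went both ways. Of 8, 3 were higher and 3 lower, where 29.9% and 15.4% of all genes tested were. The membrane-bound forms were the widest apart. Mgst1 was at 42, 83.5, 41.8, 37.5 and 76.9 FPKM after tunicamycin and 13.0, 17.4, 15.4, 20.3 and 13.3 FPKM after DMSO. Tunicamycin replicates 2 and 5 stood well above the other treated libraries, and all 5 were above DMSO (log2 change 1.70 ± 0.22, adjusted p 9.21e-05). Mgst3 went the opposite way, at 21, 17.3, 14.7, 15.5 and 21.9 FPKM after tunicamycin and 48.3, 40.6, 39.4, 36.6 and 59.0 FPKM after DMSO (log2 change -1.26 ± 0.15, adjusted p 4.86e-05), with no overlap. Mgst2 had 6.65 ± 3.14 and 3.77 ± 0.933 FPKM and did not pass (adjusted p 0.137). It did pass as higher without Tunicamycin replicate 1 (0.00293), where it was listed at 2 FPKM, and with the replicate block (0.0474).

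Among the soluble transferases Gstm5 fell, with 36, 35.1, 26.7, 26.8 and 33.7 FPKM after tunicamycin and 89.0, 69.3, 57.0, 60.4 and 90.1 FPKM after DMSO. The log2 change was -1.17 ± 0.15 (adjusted p 8.5e-05) and the groups were far apart. Gstm1, of the same mu class, was higher, at 181 ± 48.1 FPKM after tunicamycin and 107.5 ± 22.9 FPKM after DMSO (SD, n = 5 each; adjusted p 0.0103 in limma), with overlap between the groups. Its call was lost without DMSO replicates 1 and 5 (adjusted p 0.0973). Gstp1, the pi class enzyme, fell to 99.7 ± 10.4 FPKM, against 172 ± 28.2 FPKM after DMSO (adjusted p 0.000428). Gstp2 is a near-identical copy, listed at 0.694 to 2.61 FPKM, and reads of both may have been split between them. Gsto1, of the omega class, was higher by a small step without overlap (222 ± 12.5 and 173 ± 15.8 FPKM, adjusted p 0.0118), a call that was lost with equal medians (log2 change 0.13, adjusted p 0.368) and without DMSO replicates 3 and 5 (0.0968). Gsta4, which clears lipid aldehydes, did not pass (adjusted p 0.138), but passed as higher with TPM scaling (0.0422) and without Tunicamycin replicate 1 (0.0494).

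Of the 7 genes of the thioredoxin system 3 rose, 3 fell and 1 did not pass. Among all genes tested 29.9% rose and 15.4% fell. Txn1, the cytosolic thioredoxin, fell to 149 ± 25.5 FPKM after tunicamycin, against 229.5 ± 23.7 FPKM after DMSO (SD, n = 5 each; adjusted p 0.00203 in limma), and Txn2, its mitochondrial counterpart, to 98.3 ± 11.0 FPKM, against 167 ± 21.6 FPKM (adjusted p 0.000328). Txnrd1, the cytosolic reductase and a known NRF2 target, rose. It had 45, 54.3, 47.9, 49.2 and 50.2 FPKM after tunicamycin and 28.1, 41.5, 37.6, 41.6 and 30.3 FPKM after DMSO, without overlap (log2 change 0.46 ± 0.13, adjusted p 0.00912). The call was lost with equal medians (0.24, adjusted p 0.0962), without DMSO replicates 3 and 5 (0.0552) and without DMSO replicates 1 and 5 (0.0769). Txnrd2, the mitochondrial reductase, fell to 15.9 ± 2.997 FPKM, against 25.8 ± 4.38 FPKM after DMSO (adjusted p 0.00249). The ratio of Txnrd1 to Txnrd2 was therefore 2.5 to 3.94 in treated libraries and 0.915 to 1.88 in DMSO libraries, with no overlap, whereas the ratio of Txn1 to Txn2 overlapped (1.21 to 1.97 and 1.20 to 1.55).

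Srxn1 encodes sulfiredoxin, which repairs overoxidized peroxiredoxins. It was at 5, 9.67, 6.88, 6.23 and 8.44 FPKM after tunicamycin and 4.57, 3.56, 3.36, 4.63 and 3.85 FPKM after DMSO. Tunicamycin replicates 2 to 5 were above every DMSO library, and Tunicamycin replicate 1 was too as listed, though its missing decimals could place it below DMSO replicate 4 (log2 change 0.70 ± 0.16, adjusted p 0.00313). The methionine sulfoxide reductases lay near the threshold. Msrb1 averaged 6.96 ± 2.64 FPKM after tunicamycin and 4.41 ± 0.712 FPKM after DMSO (SD, n = 5 each) with an adjusted p of 0.049 in limma. Its call was lost without any of 7 single libraries, without either pair of DMSO libraries, with quantile normalization, with equal medians, with no filter and without a mean-variance trend. Msra did not pass (28.1 ± 5.14 and 22.02 ± 2.65 FPKM, adjusted p 0.0748) but passed as higher without Tunicamycin replicate 1 (0.0068), with TPM scaling (0.0276) and with the replicate block (0.0396).

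**Figure D3:**
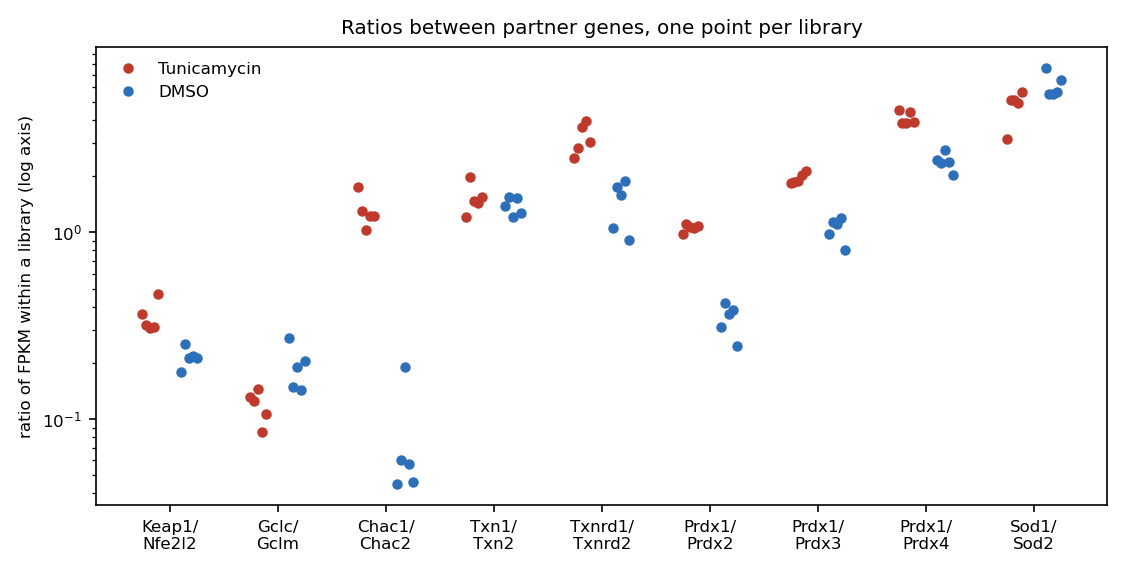
Ratio of FPKM between 9 pairs of partner genes within each library, on a log axis, with tunicamycin in red at the left and DMSO in blue at the right of each pair. A ratio within a library is not moved by multiplying that library by 1 factor. The pairs were chosen after values were seen and were not tested. The ratios of Keap1 to Nfe2l2, Chac1 to Chac2, Txnrd1 to Txnrd2 and Prdx1 to Prdx2, Prdx3 and Prdx4 do not overlap between groups, and the other 3 do.

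Peroxiredoxins are abundant thiol peroxidases, most of which thioredoxin recharges. They fell in 4 of 6 cases and rose in 0, where 15.4% and 29.9% of all genes tested did. The summed level of the 6 was 612 to 687 FPKM after tunicamycin and 953 to 1343 FPKM after DMSO. Prdx2 (chr8:84969587-84974834, plus strand, mm10), known as a major red cell antioxidant, had the largest fall of all redox genes. It was at 134, 125, 110.0, 116 and 139 FPKM after tunicamycin and 451, 291, 349, 321 and 512 FPKM after DMSO, and the log2 change was -1.59 ± 0.16 (adjusted p 1.35e-05). By FPKM it ranked 10 among the 50 genes in tunicamycin libraries and 2 in DMSO libraries. Its annotation overlaps that of Junb on the opposite strand by 173 bases, and the labels do not say whether counting used strand. Prdx1, the cytosolic form most like Prdx2, did not pass, at 132 ± 13.0 FPKM after tunicamycin and 128 ± 7.58 FPKM after DMSO (adjusted p 0.758), so that the ratio of Prdx1 to Prdx2 was 0.985 to 1.105 in treated libraries and 0.246 to 0.418 in DMSO libraries.

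Prdx4, the peroxiredoxin of the ER lumen, which feeds peroxide into disulfide formation, also fell. Its levels were 29, 35.8, 30.2, 27.7 and 38.2 FPKM after tunicamycin and 57.4, 51.7, 45.9, 51.7 and 62.2 FPKM after DMSO. The groups were clearly separate (log2 change -0.73 ± 0.12, adjusted p 0.000424). The 3 members of the ER lumen therefore differed, with Prdx4 lower, Gpx8 higher and Gpx7 not past the threshold. Prdx3, the mitochondrial form, fell to 67.7 ± 6.22 FPKM, against 125 ± 24.0 FPKM after DMSO (SD, n = 5 each; adjusted p 0.000285 in limma), and Prdx6, which also acts on phospholipid peroxides, to 239.8 ± 17.5 FPKM, against 376 ± 78.8 FPKM (adjusted p 0.00296). Prdx5 did not pass (52.9 ± 18.4 and 38.6 ± 4.46 FPKM, adjusted p 0.113).

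Catalase, the heme enzyme of peroxisomes that splits hydrogen peroxide, moved against the peroxiredoxins. Cat (chr2:103453849-103485160, minus strand, mm10) was at 129, 143, 141, 147 and 142 FPKM after tunicamycin and 63.3, 67.1, 63.7, 65.9 and 65.2 FPKM after DMSO. Both groups were tight and far apart, with a 2.16-fold difference of the means, a log2 change of 1.10 ± 0.09 (the smallest SE of the 48) and an adjusted p of 3.13e-06. Leaving out any single library moved the change between 1.08 and 1.13. Of the superoxide dismutases, which make hydrogen peroxide from superoxide, Sod2 in mitochondria had 19, 23.7, 21.4, 19.3 and 25.8 FPKM after tunicamycin and 31.6, 27.2, 26.7, 26.2 and 30.8 FPKM after DMSO. The highest treated library lay just below the lowest DMSO library (log2 change -0.37 ± 0.11, adjusted p 0.0157). The call was lost with TPM scaling (-0.25, adjusted p 0.139), with no filter (0.054) and without DMSO replicates 3 and 5 (0.0729) or 1 and 5 (0.122). Sod1, the cytosolic copper-zinc form, fell to 107 ± 31.9 FPKM, against 178 ± 42.5 FPKM after DMSO (adjusted p 0.014), a call lost without DMSO replicates 1 and 5 (0.121). The ratio of Sod1 to Sod2 overlapped between groups.

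By location, the 4 members whose products are mainly mitochondrial, Txn2, Txnrd2, Prdx3 and Sod2, fell, where 15.4% of all genes tested did. Among members found in mitochondria as well as elsewhere, Gpx1, Gpx4 and Sod1 fell, Prdx5, Msra and Gsr did not pass, and Mgst1 rose. The calls of Sod2, Gpx4 and Sod1 were lost under some alternatives, as given above. The 6 members that are selenoproteins, whose catalytic residue is selenocysteine, split evenly: Gpx3, Txnrd1 and Msrb1 were higher, and Gpx1, Gpx4 and Txnrd2 lower. The direction also went with abundance. Of the 14 members with a mean of at least 100 FPKM over all libraries, 3 rose (Cat, Gstm1 and Gsto1) and 10 fell. Among all genes tested at that level 23.7% rose and 49.1% fell, against 21.4% and 71.4% of these members. Of the 34 tested members under 100 FPKM 12 rose and 8 fell, or 35.3% and 23.5%, where 30.2% and 14% of all such genes did. The median log2 change of genes at or above 100 FPKM was -0.39 over all genes and -0.63 over the redox genes. The summed level of all 50 genes was 3388 to 4092 FPKM after tunicamycin and 4592 to 5613 FPKM after DMSO.

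**Figure D4:**
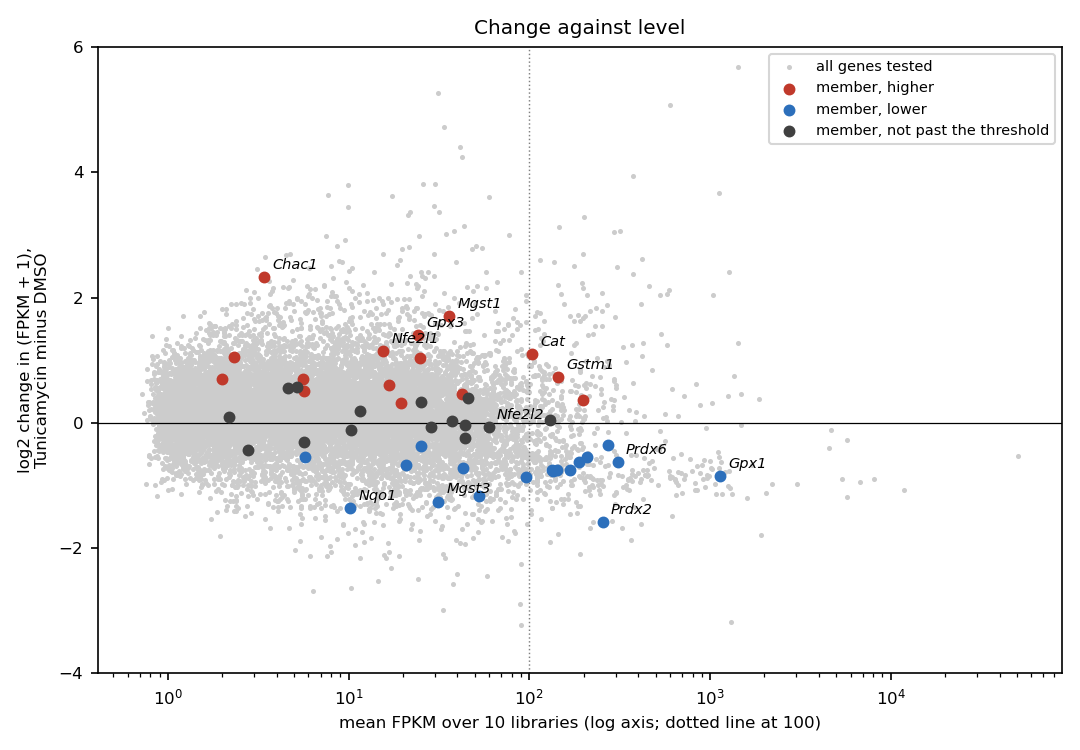
Log2 change in FPKM + 1 (tunicamycin minus DMSO) against mean FPKM over the 10 libraries (log axis) for all 14727 genes tested (gray) and the 48 tested redox genes (colored by call). To the right of the dotted line at 100 FPKM, 10 of 14 redox genes are lower, and the whole gray cloud there has a median of -0.39.

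Differences among the DMSO libraries followed the same genes. In 16 of the 18 members that fell, all but Gpx1 and Tkt, DMSO replicates 1 and 5 were the pair with the highest values. The same held for 48.1% of all 2261 genes that fell. Klf1, the erythroid master regulator, was at 60, 29.9, 20.8, 17.2 and 29.2 FPKM after tunicamycin and 206, 109.6, 137, 84.4 and 208 FPKM after DMSO. Car1, carbonic anhydrase of erythroid progenitors, was at 752, 243, 199.5, 175 and 132 FPKM after tunicamycin and 3563, 1669, 1897, 1548 and 2967 FPKM after DMSO. DMSO replicates 1 and 5 were the highest DMSO pair for 11 of the 12 erythroid markers that fell, these 2 among them, and for 0 of the 5 that rose. Without these 2 libraries, a setting chosen after seeing the data, 12 members were higher and 13 lower, and the log2 changes of Prdx2, Mgst3 and Gstm5 were -1.35, -1.08 and -0.96, all past the threshold. The part of erythroid transcripts in the falls was not tested. Of the 15 members that rose, 4 had DMSO replicates 1 and 5 as their lowest pair, against 37.2% of all genes that rose.

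**Figure D5:**
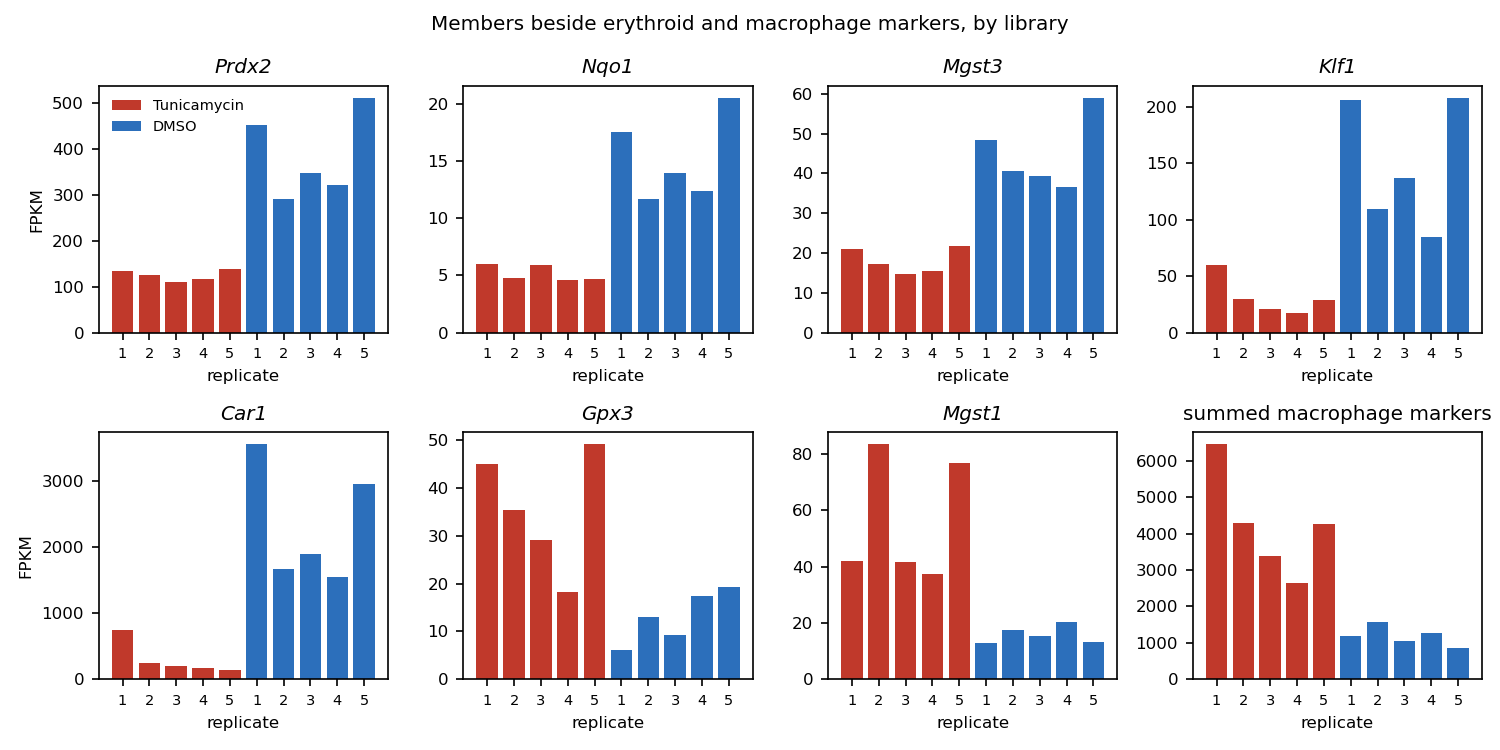
FPKM per library of 5 redox genes (Prdx2, Nqo1, Mgst3, Gpx3, Mgst1), of the erythroid genes Klf1 and Car1 and of the sum of 18 macrophage markers, with tunicamycin replicates in red at the left and DMSO replicates in blue at the right of each panel; bars start at 0. Prdx2, Nqo1, Mgst3, Klf1 and Car1 are all highest in DMSO replicates 1 and 5, and the macrophage sum is highest in Tunicamycin replicate 1, at 6461 FPKM.

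A wider list of 82 NRF2 and redox genes outside the 50 gave 71 tested genes, of which 26 (36.6%) rose and 9 (12.7%) fell, near the shares of all genes. Largest by absolute log2 change were Nucb2 (3.36), Ephx1 (2.52), Hmox1 (2.38), Slc3a2 (1.71) and Sqstm1 (1.70), all higher. Ephx1, microsomal epoxide hydrolase and a known NRF2 target in mouse, was at 32.2 ± 8.29 FPKM after tunicamycin and 4.73 ± 1.11 FPKM after DMSO (SD, n = 5 each; adjusted p 1.65e-06 in limma). Hmox1, heme oxygenase, which both NRF2 and BACH1 control, was at 1358, 454, 552, 418 and 391 FPKM after tunicamycin and 82.3, 191, 98.9, 131 and 69.1 FPKM after DMSO. Macrophage marker sums in the 5 tunicamycin libraries were 6461, 4288, 3381, 2645 and 4259 FPKM. Tunicamycin replicate 1 was thus highest in both, by far in Hmox1, but the other treated libraries did not keep the same order. The part of macrophages was not tested. Slc7a11, the cystine carrier that pairs with Slc3a2, was not tested, at 0.669 ± 0.432 and 0.414 ± 0.191 FPKM.

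Scaling moved the balance. Over all genes tested the median log2 change was 0.18 as deposited, -0.05 with equal medians, -0.01 with quantile normalization and 0.28 with TPM scaling, and the share of calls over all genes that were higher was 66.1%, 42.2%, 47.6% and 76.7%. For the redox genes the counts were 15 higher and 18 lower as deposited, 11 and 24 with equal medians, 13 and 22 with quantile normalization, and 17 and 16 of 49 tested with TPM scaling. No member that was called turned its direction under any scaling.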

How the data were processed

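Libraries were made per the labels' protocols from RNA extracted with a miRNeasy kit, amplified by Geo-seq (a method for small samples) and tagged with a Tn5-based kit. Amplification can raise the noise of low genes. The authors deposited 1 table of FPKM values. Per the submitters' processing notes the authors used the build mm10 with Cufflinks 2.1.1, Bowtie 0.12.9, DESeq2 and HTSeq; no source used here gives their roles, the annotation or further versions. The column of Tunicamycin replicate 1 was deposited by the authors as FPKM without decimals and is recorded here as a score, since how the decimals were removed is not known. It was used as FPKM. The table holds no read counts, so depth is unknown and no counting interval is given. FPKM sums per library were 436970 to 477768 after tunicamycin and 492963 to 499251 after DMSO, without overlap. The main fit leaves that difference in place, and TPM scaling sets the sums equal. Per library 13464 to 18378 models reached 1 FPKM.

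Identifiers were matched to symbols for 51389 of 51670 models. Values were tested as log2(FPKM + 1), which understates changes of low genes, with limma 3.58.1 in R 4.3.3 (group as the only term, eBayes with trend, Benjamini-Hochberg adjustment over all 14727 genes tested). Every adjusted p, SE and log2 change comes from that fit. With no counts in the table, no count model was run. The fit was tested on simulated data with independent noise, drawn from the DMSO spread for both groups. That simulation held no missing decimals and no differences shared between genes, so it does not bear on these limits. The permutation test foreseen for sums and ratios was not run, because the ratio pairs were picked after values were seen; both are described without a test. Per-library values are given for members called with an absolute log2 change of at least 1 and for 15 members of central role. The members and lists were chosen with earlier results of these data known, and the partner ratios and the AP-1 form of the ARE after values were seen. Gene positions and overlaps were read from GENCODE M21 and promoters from RefSeq. Alternatives were other pseudocounts, filters, scalings, a replicate block, no variance trend and left-out libraries. Figures were drawn with matplotlib 3.10.9.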

Additional observations from a re-analysis of the deposited data

Results flagged for a closer look

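In 100 groups of 5 libraries (50 genes in 2 treatments), 7 had a library far from the other 4 of its group, where chance alone flags about 1 group in 20. Nfe2l2 was at 67.0 FPKM in Tunicamycin replicate 2, above 55.0 to 57.1 FPKM in the other treated libraries. Gss was at 11.7 FPKM in Tunicamycin replicate 5, above 9.0 to 9.77 FPKM. Ggct was listed at 1.0 FPKM in Tunicamycin replicate 1, the library without decimals, below 2.43 to 2.83 FPKM. Prdx6 was at 209.5 FPKM in Tunicamycin replicate 5, below 240.2 to 251.9 FPKM. Chac1 was at 0.983 FPKM in DMSO replicate 3, above 0.283 to 0.401 FPKM in the other DMSO libraries and still below every treated library. Prdx1 was at 141 FPKM in DMSO replicate 1, above 121 to 127 FPKM, and Pgd at 51.1 FPKM in DMSO replicate 2, above 42.3 to 44.5 FPKM.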

How the results depend on the processing

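Of 33 called members 20 were tested under all 21 alternatives and kept direction and call in each. Another 3 kept both wherever they were tested: Chac1, Maff and Gpx8 were not tested at a mean of at least 5 FPKM, nor Chac1 without any 1 treated library. In all, 30 kept both under each single left-out library that allowed a test; the exceptions were Mafg, Gpx4 and Msrb1. Members higher ranged from 12 to 17 and members lower from 17 to 19 with 1 library left out. Without DMSO replicates 3 and 5 there were 11 and 15, and without DMSO replicates 1 and 5 (chosen after seeing the data) 12 and 13; fewer libraries enter these fits. Over all genes, 4403 rose and 2261 fell. With genes of at least 5 mean FPKM only, fewer genes were tested and 2824 rose. The genes that fell were 3767 with quantile normalization and 4035 with equal medians. Without DMSO replicates 1 and 5, 2741 rose and 1427 fell. These data do not settle whether the replicate numbers pair the libraries. Deviations of same-numbered libraries correlated at 0.0207 to 0.248, and 3 of 5 treated libraries correlated best with their own number. With that replicate block 18 members were higher and 18 lower, with Gpx7, Mgst2 and Msra added. On the plus strand alone the shares of all promoter windows were 6.38% and 9.44% for the ARE cores, 0.658% for TGANTCAGC, 2.12% for the ATF4 and C/EBP core, 0.335% for the unfolded protein response core and 0.067% for the ER stress element, since 1 strand was searched instead of 2. The deposited values give no depth, which leaves the counting error of genes near 1 FPKM unknown.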

Other observations

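Of 17 selenoprotein and selenocysteine synthesis genes outside the 50 members, all tested, 5 rose and 3 fell, where 29.9% and 15.4% of all genes tested did. Selenos and Selenok, ER membrane proteins of ER-associated degradation, were at 103 ± 26.0 and 99.2 ± 19.8 FPKM after tunicamycin and 39.4 ± 4.45 and 49.8 ± 3.11 FPKM after DMSO (SD, n = 5 each; limma, adjusted p 4.35e-05 and 0.000109). Selenop, the secreted selenium carrier, was at 318 ± 73.5 FPKM after tunicamycin and 158 ± 54.4 FPKM after DMSO (adjusted p 0.00248). Selenoh, a nucleolar redox protein, fell to 55.8 ± 11.6 FPKM after tunicamycin, against 93.7 ± 5.84 FPKM after DMSO (adjusted p 0.000566), and Selenoi, an enzyme of phospholipid synthesis, to 4.65 ± 0.962 FPKM, against 8.06 ± 0.813 FPKM (adjusted p 0.00155). Selenof, of the ER lumen, did not pass, at 101.5 ± 17.3 and 101.0 ± 8.85 FPKM.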
